A study of Danio rerio with 14 samples.

Results

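The genes of the sarcomere and of muscle contraction described here are the 78 of the 36109 genes of the count table whose symbols begin with the names of the myosin heavy and light chains, myosin-binding proteins, myomesins, troponins, tropomyosins, skeletal actins, nebulin, titin, the Z-disc proteins, the calcium pump, release channel and buffers of muscle, or the muscle creatine kinases. The rule reads symbols and no measured value, and the set was drawn up with earlier results of these data known. One of them, tnni3k, matches by name only: it encodes a protein kinase and no troponin, and it was kept. The mitochondrial creatine kinase gene ckmt1 was kept as well, though its mammalian counterpart is made in many tissues and not in muscle alone. RNA was sequenced from whole zebrafish embryos at 24 and 48 hours post fertilization (hpf), as 4 mttp knockout libraries and 4 sibling libraries at 24 hpf and 3 of each at 48 hpf. Per the labels the mutants carry a CRISPR/Cas9-mediated knockout of mttp, the gene of the microsomal triglyceride transfer protein that loads yolk lipid onto apolipoprotein B. The labels name no allele and do not say whether siblings were wild type or carriers. Nor do they say that replicates were separate clutches, so the p-values below reflect only how these libraries spread, and that spread may be technical. RNA of mttp was lower in every mutant library than in every sibling library of its stage (log2 fold change -2.88 ± 0.21 at 24 hpf and -1.81 ± 0.23 at 48 hpf).

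Striated muscle shortens when thick filaments of myosin pull on thin filaments of actin inside the sarcomere. Calcium released from the sarcoplasmic reticulum through the ryanodine receptor binds troponin C, and troponin I, troponin T and tropomyosin then uncover the actin filament. The calcium pump of the reticulum ends the contraction, creatine kinases restore ATP, and the Z-disc, the M-line and titin hold the filaments in register. In zebrafish trunk muscle the superficial slow fibres form early and fast fibres make up most of the mass, and many genes of the set exist as fast, slow and heart forms.

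Values are read counts scaled to a common library size with TMM factors (CPM), given per library in replicate order, and means are ± SD over the 4 libraries of a group at 24 hpf or the 3 at 48 hpf. Changes, also those in brackets, are log2 fold changes ± SE from edgeR's quasi-likelihood test, with p-values adjusted over 24424 genes by the Benjamini-Hochberg method and a call at an adjusted p under 0.05. Of the 78 genes 74 passed the filter on low counts. The 4 that did not pass were troponin genes: tnni1a and tnni2a.1, with at most 16 counts in any library, tnnt2b, with at most 40, and tnni4b.1, with 0 counts in each of the 8 libraries of 24 hpf and 2 to 34 in those of 48 hpf. Transcript lengths were not used, so levels are compared between groups for a gene and never between genes.

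Muscle genes took a smaller share of the counts in mutants than in siblings at 48 hpf, and at 24 hpf the shares overlapped. The 78 genes took 2.55, 2.68, 2.94 and 3.01% of all counts in the 24 hpf mutants and 2.38, 2.54, 3.10 and 2.90% in the 24 hpf siblings. At 48 hpf they took 6.26, 6.97 and 6.57% in mutants, against 8.37, 8.06 and 9.35% in siblings, so that each mutant library was below each sibling library. The gene with most counts was the calcium pump gene atp2a1 in all libraries of 24 hpf and in sibling replicate 1 of 48 hpf, and the fast myosin gene myhz1.1 in the other libraries of 48 hpf. In bulk samples fewer muscle cells and less RNA per muscle cell cannot be told apart.

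Some libraries stand apart. Library totals ranged from 29422983 to 46534187 counts. The deepest, sibling replicate 3 of 48 hpf, had the highest share of muscle counts and the lowest share of mitochondrial counts (0.696%), and sibling replicate 2 of 24 hpf had the next lowest (0.847%). The other 12 libraries had 1.27% to 1.97%. Among markers of other cell types, summed CPM at 48 hpf lay at 1482 to 1612 in mutants and 1250.0 to 1699 in siblings for 7 neuron genes. For 6 epidermis genes they lay at 25379.5 to 29594 in mutants and 23125 to 31661 in siblings, and both lists overlapped between the genotypes. For the neuron genes the overlap came from sibling replicate 3 alone, at 1250.0 CPM, and the other siblings lay above all mutants. Of the 7 neuron genes 6 had a log2 fold change below 0 at 48 hpf and 1 above (median -0.25). The share of them called was 28.6%, all lower, where 6.06% of all genes were called. The 5 genes listed as notochord markers, among them the hatching gland gene ctslb, summed to 2658 to 2939 CPM in mutants and 3459 to 6030.3 CPM in siblings, without overlap. The single genes did not share this direction: 3 had a log2 fold change above 0 and 2 below (median 0.02). The highest of these sums was that of sibling replicate 3, and the calls of muscle genes without that library are given with the comparisons of mutants and siblings. Beyond that, the part of the difference in these sums in the results was not tested. The 10 heart muscle markers stood at 134 to 164 CPM in mutants and 132 to 162 CPM in siblings, and the 5 smooth muscle markers at 20.9 to 31.5 CPM in mutants and 20.8 to 23.8 CPM in siblings, both with overlap.

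Between 24 and 48 hpf most of the set rose in the siblings. Of the 74 genes tested, 50 rose and 11 fell, or 82.4% called, where 52.4% of all genes tested were called (26.2% higher, 26.3% lower). The median log2 change of the set was 1.36, and that of all genes was -0.04. The stages did not overlap for 46 genes that were higher and 9 that were lower, where 50.4% of all genes did not overlap (25.2% in each direction). The batch label equals the stage, so that stage and batch cannot be told apart in this comparison.

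Among the thick filament genes 15 of 18 rose and 2 fell in the siblings (94.4% called, where 52.4% of all genes were called). Those that rose include all 4 fast myosin heavy chain genes: myhz1.2 averaged 4761 ± 826 CPM at 48 hpf and 416 ± 111 CPM at 24 hpf (3.52 ± 0.18, adjusted p = 7.25e-11), and myhz1.1 16506 ± 4099 and 2122 ± 650.4 CPM (2.96 ± 0.27, adjusted p = 8.02e-08). The 2 that fell were slow myosin genes, smyhc1 (-0.59 ± 0.13, adjusted p = 7.96e-04) and smyhc3 (-0.68 ± 0.19, adjusted p = 0.00643). The third of them, smyhc2, had a log2 change of -0.49 ± 0.22 (adjusted p = 0.0705). Without sibling replicate 3 of 48 hpf, whose 224 CPM of smyhc2 stood above the 123 and 119 CPM of the others, smyhc2 was called lower as well (adjusted p = 0.00150), as it was with the replicate block across stages (0.0287). Whether replicate numbers pair libraries across the stages was not checked. Without sibling replicate 3 of 48 hpf 4 calls of a rise were lost, those of myhz1.3 (adjusted p = 0.0839), the fast myosin-binding protein gene mybpc2a (0.0902), the slow troponin C gene tnnc1b (0.139) and the heart calsequestrin gene casq2 (0.141).

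The widest swings were those of single genes within a family. The troponin I gene tnni2b.2 had 1101, 922 and 2083 counts in the siblings of 48 hpf and 1, 2, 0 and 3 counts in those of 24 hpf, and its neighbour tnni2b.1 fell by 4.07 on the log2 scale. The calcium pump gene atp2a1l averaged 397 ± 88.6 CPM at 48 hpf and 1.13 ± 0.592 CPM at 24 hpf (8.45 ± 0.36, adjusted p = 1.18e-11). The next greatest rises among genes with an average log2 CPM of at least 1 were those of ckmt2b (5.44), tcap (5.39), tnnt3b (4.00) and the myozenin gene myoz1a (3.83). The mitochondrial creatine kinase gene ckmt2a, below that average, rose by 5.62 and had 0 to 8 counts a library at 24 hpf. Besides tnni2b.1, the greatest falls were those of the troponin T genes tnnt2c (-4.66) and tnnt2a (-0.86), the alpha-actinin gene actn2b (-1.42), the myozenin gene myoz2b (8.71 ± 0.629 CPM at 48 hpf, 18.7 ± 2.46 CPM at 24 hpf) and the mitochondrial creatine kinase gene ckmt1 (-0.85). The call of tnnt2a was lost without sibling replicate 2 of 48 hpf (adjusted p = 0.0637), and of the 61 calls 54 held under every alternative.

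Within the troponin T, fast troponin I and fast myosin heavy chain families the share of counts moved from one gene to another between the stages in siblings. Mutant means are given beside them; the stages were not tested against each other in mutants. A share of counts also depends on transcript length, so it is read only across groups. Of all troponin T counts, tnnt2c took 2.08 ± 0.475% in mutants and 1.14 ± 0.0704% in siblings at 48 hpf (SD, n = 3 each), against 67.8 ± 1.56% in mutants and 70.2 ± 5.10% in siblings at 24 hpf (SD, n = 4 each). The fast gene tnnt3b took 68.6 ± 2.04% and 69.9 ± 1.48% at 48 hpf in mutants and siblings, against 10.8 ± 0.899% and 10.4 ± 2.38% at 24 hpf. Troponin T counts thus came mostly from tnnt2c at 24 hpf and mostly from tnnt3b at 48 hpf in both genotypes.

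The fast troponin I genes changed places likewise. The gene tnni2b.1 held 2.06 ± 0.360% of their counts in mutants and 1.90 ± 0.296% in siblings at 48 hpf, against 79.0 ± 1.81% and 78.5 ± 3.21% at 24 hpf, while tnni2a.4 held 95.9 ± 0.360% and 95.3 ± 0.244% at 48 hpf. Of the fast myosin heavy chain counts, myhz1.3 held 16.3 ± 2.00% in mutants and 14.6 ± 1.68% in siblings at 48 hpf, against 50.1 ± 3.75% and 49.7 ± 3.06% at 24 hpf. In siblings each of these shares differed between the stages by an exact two-sided permutation test (p = 0.0286, the smallest that 3 against 4 libraries allow, adjusted p = 0.0429 over 27 shares). The share of myhz2 did not pass it (adjusted p = 0.0812), nor did those of the slow myosin heavy chains: smyhc1 held 88.0 ± 1.45% of their counts in siblings at 48 hpf and 88.6 ± 1.39% at 24 hpf. Between mutants and siblings the lowest p of the exact permutation test at 24 hpf was 0.114, where 4 against 4 libraries allow 0.0286 and where that value, over 27 shares, hardly allows an adjusted p under 0.05. At 48 hpf the exact permutation test of 3 against 3 libraries cannot go below p = 0.10.

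**Figure D1:**
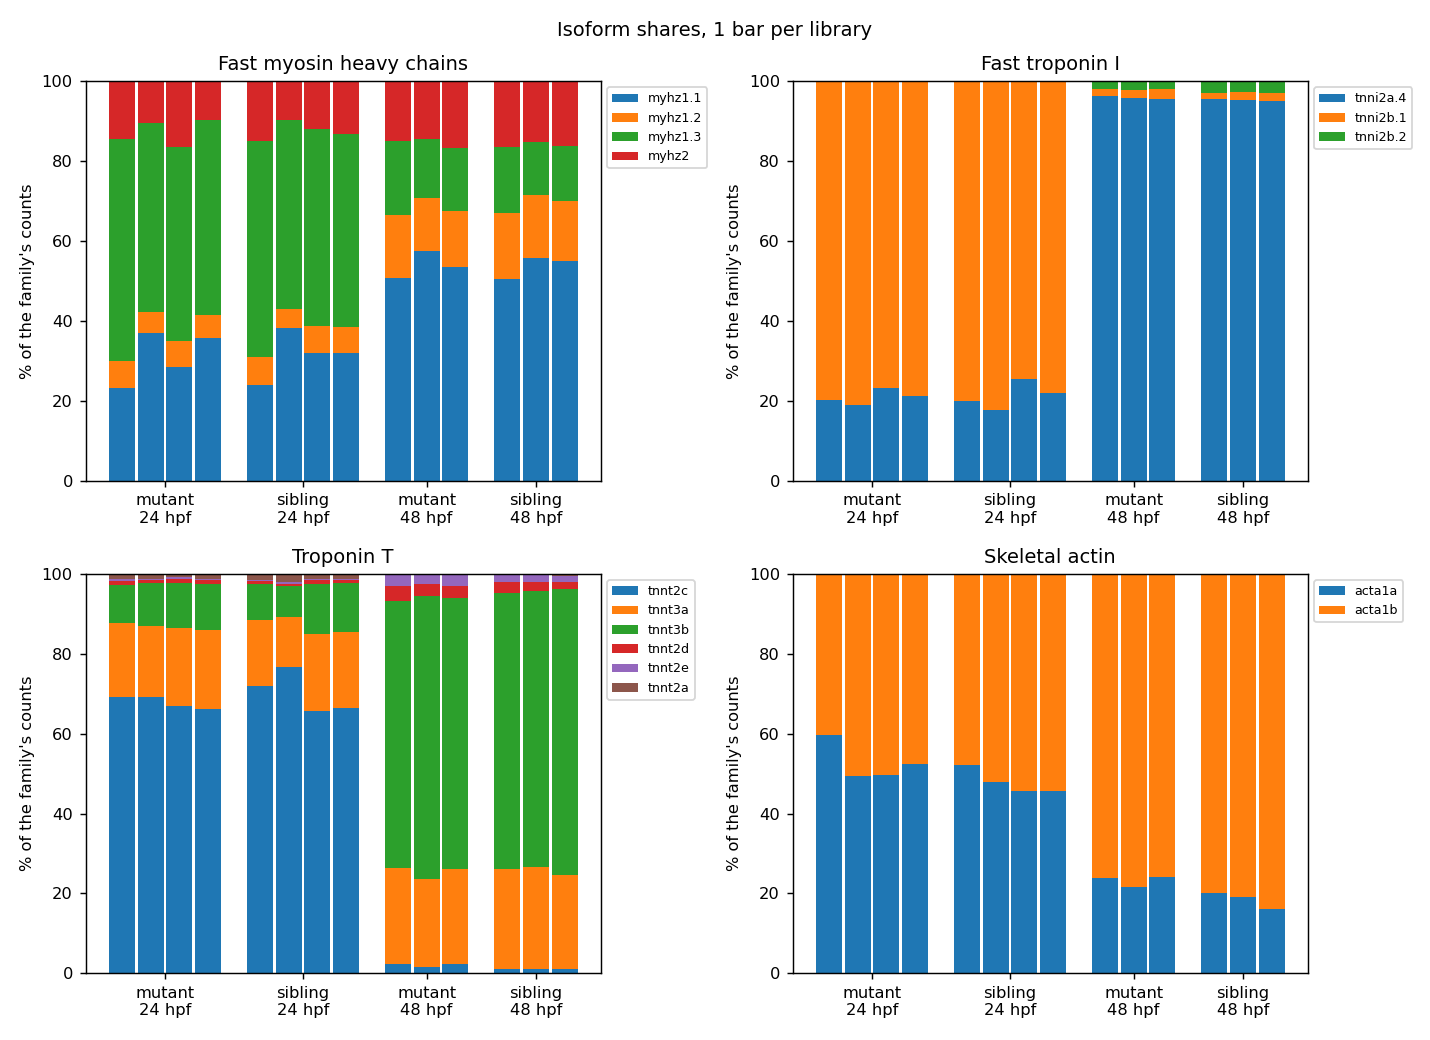
Share of read counts (percent, vertical axis) held by each gene of 4 families in each library, as stacked bars: fast myosin heavy chains, fast troponin I, troponin T and skeletal actin; genes with very small shares are not drawn. Troponin T counts came mostly from tnnt2c in the libraries of 24 hpf and mostly from tnnt3b in those of 48 hpf, in mutants and siblings.

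Several of these genes lie side by side. In the gene order of RefSeq's assembly GRCz12tu, where 76 of the 78 symbols were found, 22 of them form 13 neighbouring pairs with at most 1 gene between. These include myhz1.3, myhz1.2 and myhz1.1, the 3 smyhc genes, tnni2a.1 to tnni2a.4, tnni2b.2 with tnni2b.1, and ttn.1 with ttn.2. The genes of one family in such a row are close copies, and how reads that match several of them were counted was not stated, so single values within these groups are uncertain, as they are for acta1a with acta1b, ckma with ckmb and atp2a1 with atp2a1l. Counts summed over the 4 fast myosin heavy chain genes differed between mutants and siblings by -0.44 ± 0.18, adjusted p = 0.189 at 48 hpf, and those of the 3 slow ones by 0.03 ± 0.14, adjusted p = 0.948.

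At 24 hpf none of the 74 genes was called between mutants and siblings, where 3.82% of all genes were called (1.50% higher, 2.33% lower). At an unadjusted p under 0.05 there were 2 higher and 4 lower genes, and DESeq2 and limma-voom called 0 as well. The median log2 fold change of the set was -0.08, beside -0.0028 for all genes. Of the 30 thin filament genes 26 lay below 0 (median -0.25), and of the 12 Z-disc genes 10 lay above 0 (median 0.13), in a comparison where scaling by library size alone shifts the median of all genes by 0.102. Roles were set by symbol, so the 30 include the kinase gene tnni3k. The groups of libraries did not overlap for 1 gene, the heart troponin C gene tnnc1a, where 4.99% of all genes were higher and 8.59% lower without overlap.

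The 6 genes with the smallest p at 24 hpf had values as follows. The heart troponin C gene tnnc1a had 3.85, 2.94, 3.57 and 3.69 CPM in mutants and 5.37, 5.88, 5.33 and 4.83 CPM in siblings (-0.61 ± 0.23, adjusted p = 0.174). Skeletal actin acta1b had 342, 533, 468 and 469 CPM in mutants and 461, 639.7, 638 and 596 CPM in siblings (-0.37 ± 0.13, adjusted p = 0.151), and these overlapped. Telethonin, tcap, a cap of titin in the Z-disc, had 2.05, 0.350, 0.984 and 0.981 CPM in mutants and 1.21, 0.236, 0.372 and 0.365 CPM in siblings (1.00 ± 0.46, adjusted p = 0.294), with overlap. The other 3 were the slow myosin-binding protein gene mybpc1 (0.71 ± 0.26, adjusted p = 0.154), the heart troponin T gene tnnt2a (-0.50 ± 0.23, adjusted p = 0.294) and the tropomyosin gene tpm2 (-0.29 ± 0.13, adjusted p = 0.301).

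Over all genes tested, same-numbered libraries of a stage deviated together, so the numbers were taken to pair the samples. A fit with the replicate number as a block is given for each muscle gene whose call between genotypes it changes. For the difference of effects and for the lists of related genes only some such changes are given. Over the 74 muscle genes the correlations were 0.454, 0.402, 0.431 and 0.319 at 24 hpf and 0.259, 0.227 and -0.00836 at 48 hpf, so that replicate 3 of 48 hpf did not deviate together in these genes. In the same genes mutant replicate 4 of 24 hpf correlated best with sibling replicate 3. With the replicate block 2 genes were called at 24 hpf, acta1b lower (adjusted p = 0.0108) and tcap higher (0.0185), while the calls over all 24424 genes numbered 1371 with the block and 934 without it. Without sibling replicate 1 of 24 hpf, which had the highest tcap value of its group, tcap was called higher (adjusted p = 0.0468). Leaving out sibling replicate 3 of 48 hpf, a library of the other stage that enters through the joint fit, brought tnnc1a to 0.0398. In that fit the calls over all genes at 24 hpf numbered 1727, against 934 with all libraries.

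At 48 hpf 13 of the 74 genes were called, 2 higher and 11 lower in mutants. That is 17.6% of the set, where 6.06% of all genes were called (4.26% higher, 1.80% lower). The genes that fell were acta1a, acta1b, tpm1 and tnni2b.2 of the thin filament, myom1b and myom2a of the thick filament, actn3b of the Z-disc, and atp2a1, atp2a1l, casq1a and ryr1b of the calcium store. Those that rose were the troponin T gene tnnt2c and the mitochondrial creatine kinase gene ckmt1. Of the 74 log2 fold changes 56 were below 0, with a median of -0.27 beside -0.0046 for all genes.

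Groups of libraries did not overlap at 48 hpf for 41 of the 74 genes, where 22.5% of all genes did not overlap. Of these, 34 were lower in mutants (10.6% of all genes were lower without overlap) and 7 higher: actn2a, ckmt1, mybpc3, smyhc3, tcap, tnnt2c and tnnt2e. These 7 are a smaller share of the 74 than among all genes, where 2926 of 24424 were higher without overlap. With the replicate block 23 genes were called, 3 higher and 20 lower. DESeq2 called 22 (2 higher, 20 lower) and limma-voom 20 (5 higher, 15 lower). Calls over all genes also grew, to 1925 with the block, 2090 with DESeq2 and 1977 with limma-voom, against 1480 in the fit reported here. Leaving out mutant replicate 1 or 2 of 48 hpf left 8 calls each (2 higher, 6 lower). Leaving out sibling replicate 3, the library with the most muscle counts, gave 9 calls (2 higher, 7 lower). One of these 9, myoz2a (adjusted p = 0.0158), was not among the 13.

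**Figure D2:**
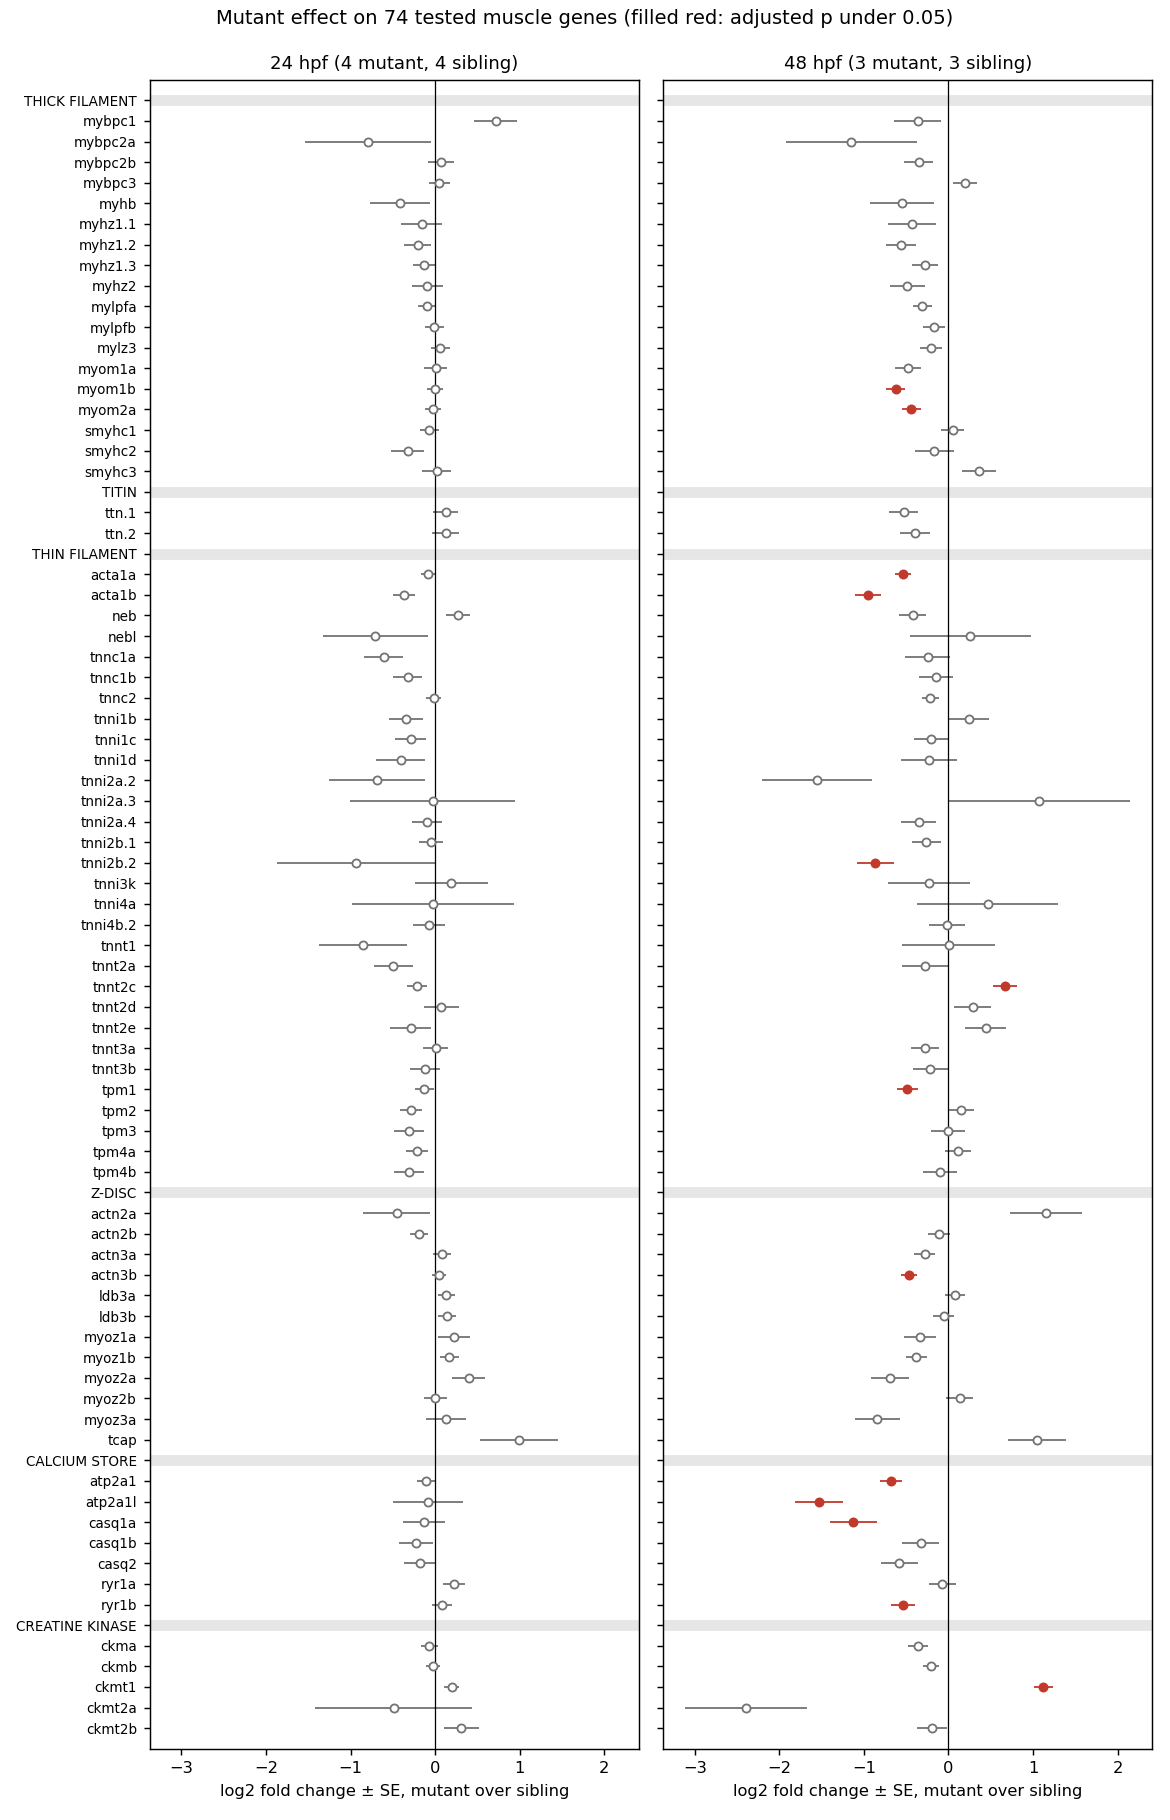
Log2 fold change of mutants against siblings (horizontal axis, bars are ± SE) for the 74 tested genes at 24 hpf and at 48 hpf, ordered by role; filled red points have an adjusted p under 0.05. At 24 hpf 0 points are filled, and at 48 hpf 13 are, 11 of them below 0.

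Of the 30 thin filament genes tested, tnni3k among them, 4 fell and 1 rose at 48 hpf, and 25 did not pass the test. The share called was 16.7%, where 6.06% of all genes were called. Both skeletal actin genes of the set fell, and the rule took in actin genes of the acta1 name only. Skeletal actin acta1b had 957, 1241 and 1112 CPM in mutants, against 2055, 2046 and 2297 CPM in siblings (-0.95 ± 0.15, adjusted p = 7.10e-04). The mutant mean was 51.7% of the sibling mean, and no mutant library reached a sibling library. Its paralog acta1a had 301, 340.0 and 352 CPM in mutants and 518, 485 and 442 CPM in siblings (-0.54 ± 0.10, adjusted p = 0.00173), again without overlap. The counts summed over acta1a and acta1b differed by -0.87 ± 0.11, adjusted p = 8.80e-05.

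Both genes were also followed across the stages. In siblings acta1b rose between 24 and 48 hpf (1.87 ± 0.14, adjusted p = 8.66e-09), and acta1a had a log2 change of -0.14 ± 0.09 (adjusted p = 0.197). Mean CPM at 48 hpf was 2.43 times that at 24 hpf in mutants and 3.65 times in siblings for acta1b. For acta1a it was 0.660 times in mutants and 0.906 times in siblings. Every mutant library of 48 hpf was below every mutant library of 24 hpf for acta1a, and the sibling libraries of the stages overlapped.

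Tropomyosin lies along the actin filament and blocks myosin when calcium is low. The gene tpm1 had 24.6, 23.5 and 24.0 CPM in mutants and 32.3, 32.1 and 36.6 CPM in siblings at 48 hpf (-0.49 ± 0.12, adjusted p = 0.0264), without overlap. Its call was lost when any 48 hpf mutant library was left out (adjusted p 0.0750, 0.104 and 0.0999), without sibling replicate 3 (0.0777), and in a fit of the 48 hpf libraries alone (0.0554). The other tropomyosin genes gave log2 fold changes of 0.15 (tpm2), -0.0041 (tpm3, a slow muscle form), 0.11 (tpm4a, a heart form) and -0.10 (tpm4b), with adjusted p of at least 0.677.

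Of the fast troponin genes, 5 lay below all sibling libraries in every mutant library at 48 hpf without passing the test. Among all 23 fast genes of the set 15 were lower and 0 higher without overlap, where 10.6% of all genes were lower without overlap. The fast troponin C gene tnnc2 averaged 1991 ± 120.3 CPM in mutants and 2310.3 ± 52.1 CPM in siblings (-0.21 ± 0.10, adjusted p = 0.293). The fast troponin T genes tnnt3a and tnnt3b had log2 fold changes of -0.28 ± 0.17 and -0.22 ± 0.21, and the fast troponin I gene tnni2a.4 -0.35 ± 0.21. The adjusted p-values of these 4 genes were 0.293 to 0.657. The fifth, the scarce troponin I gene tnni2a.2, had 0.725, 0.526 and 0.479 CPM in mutants and 1.16, 2.24 and 1.70 CPM in siblings (-1.55 ± 0.65, adjusted p = 0.207). The one troponin I gene called, tnni2b.2, had 20.5, 22.3 and 18.3 CPM in mutants and 33.6, 30.0 and 47.8 CPM in siblings (-0.87 ± 0.22, adjusted p = 0.0258). The scarce gene tnni2a.3 was the single fast gene with a log2 fold change above 0 (1.07 ± 1.08, adjusted p = 0.676). The call of tnni2b.2 was lost without each of the 48 hpf mutant libraries (adjusted p 0.0920, 0.0645 and 0.136) and without sibling replicate 3 (0.116).

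The troponin T gene tnnt2c went the other way. It had 601, 656, 724 and 698 CPM in mutants and 635, 874, 820.2 and 773 CPM in siblings at 24 hpf (-0.21 ± 0.12, adjusted p = 0.420), with overlap. At 48 hpf it had 54.3, 38.2 and 53.1 CPM in mutants, against 27.2, 31.3 and 33.3 CPM in siblings (0.67 ± 0.14, adjusted p = 0.00730), and all mutant libraries were above all sibling libraries. This gene is the one that gave way to the tnnt3 genes with stage: mean CPM at 48 hpf was 0.0724 times that at 24 hpf in mutants and 0.0394 times in siblings. The mutant effects of the stages differed (0.88 ± 0.18, adjusted p = 0.0130). In a fit of the 48 hpf libraries alone the adjusted p at 48 hpf was 0.0513.

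The heart and slow troponin genes were not called between genotypes at 48 hpf. The heart genes tnnt2a and tnnc1a gave -0.28 ± 0.27 and -0.25 ± 0.26, and the slow troponin C gene tnnc1b -0.14 ± 0.20. Both tnnt2d and tnnt2e, which rose with stage in siblings by 2.89 and 3.49, stood at 74.6 ± 6.83 and 59.5 ± 4.64 CPM in mutants, against 61.1 ± 12.5 and 43.9 ± 0.776 CPM in siblings. For tnnt2e the libraries did not overlap (0.44 ± 0.24, adjusted p = 0.362). Nebulin, neb, a long protein along the thin filament, had 843, 997 and 1126 CPM in mutants and 1446, 1336 and 1196 CPM in siblings (-0.42 ± 0.16, adjusted p = 0.157, or 0.0480 with the replicate block).

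Of the 18 thick filament genes 2 fell at 48 hpf (5 with the replicate block), and both encode myomesins, which link myosin filaments at the M-line. The share called was 11.1%, where 6.06% of all genes were called (1.80% lower). Myomesin myom1b had 284, 284 and 319.7 CPM in mutants, against 418, 411 and 539 CPM in siblings (-0.63 ± 0.11, adjusted p = 0.00167), and the libraries did not overlap. At 24 hpf myom1b had 114, 110.5, 126 and 118 CPM in mutants and 106, 119, 129.8 and 112 CPM in siblings (0.00 ± 0.10), and the effects of the stages differed (-0.63 ± 0.15, adjusted p = 0.0249). That difference was lost without mutant replicate 1 or 2 of 48 hpf (adjusted p 0.0762 and 0.0695) and without sibling replicate 1 or 4 of 24 hpf (0.0501 and 0.0504).

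The second called myomesin, myom2a, had 464, 513 and 520.2 CPM in mutants and 652, 633 and 743 CPM in siblings (-0.44 ± 0.11, adjusted p = 0.0243), without overlap. Its call was lost without each 48 hpf mutant library (adjusted p 0.124, 0.0674 and 0.0639), without sibling replicate 3 (0.0749) and in a fit of the 48 hpf libraries alone (0.0749). The third member of the family, myom1a, had a log2 fold change of -0.47 ± 0.15, adjusted p = 0.0849, or 0.0196 with the replicate block.

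None of the myosin chains was called between genotypes at 48 hpf. The fast heavy chain gene myhz1.2 had 3220.1, 3235 and 3226 CPM in mutants and 4474, 4116 and 5693 CPM in siblings (-0.56 ± 0.18, adjusted p = 0.0876). These libraries did not overlap, and with the replicate block the adjusted p was 0.00310. The fast heavy chain gene myhz2 had 3045, 3547 and 3879 CPM in mutants and 4428, 3985 and 6239 CPM in siblings (-0.48 ± 0.21, adjusted p = 0.232, or 0.0252 with the block). The genes myhz1.1 and myhz1.3 overlapped between genotypes, at -0.43 ± 0.28 and -0.28 ± 0.15. In all 4 genes sibling replicate 3 had the highest value, 21198 CPM for myhz1.1 beside 13618 and 14703 CPM in the other siblings.

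The fast light chain genes, whose products stiffen and regulate the myosin neck, gave -0.31 ± 0.11 (mylpfa), -0.17 ± 0.13 (mylpfb) and -0.21 ± 0.13 (mylz3). The slow heavy chain gene smyhc1 had 1384, 1113 and 1286 CPM in mutants and 1119.5, 1042 and 1493 CPM in siblings (0.05 ± 0.13, adjusted p = 0.899), with overlap. The slow genes smyhc2 and smyhc3 gave -0.17 ± 0.23 and 0.36 ± 0.20. Myosin-binding proteins C, which brace the thick filament, gave -0.36 ± 0.28 for the slow form mybpc1, -0.35 ± 0.18 for the fast form mybpc2b and 0.19 ± 0.14 for the heart form mybpc3, none of them called. The myosin gene myhb was scarce, at 3.58 ± 0.720 CPM in mutants and 5.23 ± 1.07 CPM in siblings.

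Of the 12 Z-disc genes, 1 fell at 48 hpf (8.33%, where 6.06% of all genes were called). With the replicate block 3 fell and 1 rose. Alpha-actinin crosslinks actin filaments in the Z-disc, and the fast form actn3b had 549, 538 and 556 CPM in mutants, against 776, 692 and 807 CPM in siblings (-0.47 ± 0.10, adjusted p = 0.00578), without overlap. At 24 hpf actn3b gave 0.04 ± 0.08, and the effects of the stages differed (-0.51 ± 0.13, adjusted p = 0.0352). The difference was lost in 7 of the 14 fits that left out 1 library (adjusted p 0.0549 to 0.0898): mutant replicate 4 or sibling replicate 1 or 2 of 24 hpf, any mutant library of 48 hpf, or sibling replicate 1 of 48 hpf. The second fast form, actn3a, had 822, 950.4 and 901 CPM in mutants and 1132, 1076 and 1041 CPM in siblings (-0.28 ± 0.12, adjusted p = 0.237), also without overlap.

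Myozenins tether calcineurin to the Z-disc in mammals, and none of them was called between genotypes at 48 hpf. The genes myoz1b (-0.38 ± 0.13, adjusted p = 0.0915), myoz2a (-0.70 ± 0.22, adjusted p = 0.0839) and myoz3a (-0.84 ± 0.27, adjusted p = 0.0792) lay lower in mutants without overlap between the groups. Of all genes 10.6% were lower without overlap. With the replicate block myoz1b and myoz2a were called (adjusted p 0.0483 and 0.0236). The gene myoz1a gave -0.34 ± 0.19, the alpha-actinin gene actn2b -0.11 ± 0.13, and ldb3b, which binds alpha-actinin, -0.06 ± 0.12.

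Telethonin stood on the other side. The gene tcap had 45.3, 41.3 and 54.5 CPM in mutants, against 25.0, 23.1 and 20.4 CPM in siblings (1.05 ± 0.35, adjusted p = 0.0960). All mutant libraries were above all sibling libraries, and the adjusted p was 7.08e-04 with the replicate block and 0.00351 in a fit of the 48 hpf libraries alone. Both titin genes, whose product spans from Z-disc to M-line, lay lower without overlap: ttn.1 had 1455, 1838 and 2038 CPM in mutants and 2654, 2465 and 2587 CPM in siblings (-0.53 ± 0.17, adjusted p = 0.0816), and ttn.2 gave -0.40 ± 0.18, adjusted p = 0.266. With the replicate block ttn.1 was called (adjusted p = 0.0110).

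The calcium store had the highest share of called genes among the role groups. At 48 hpf 4 of its 7 genes fell (57.1%, where 1.80% of all genes were lower). All 7 log2 fold changes were below 0 (median -0.58). Without mutant replicate 1 or 2 or sibling replicate 3 of 48 hpf, 2 of the 7 genes were called. The pump gene atp2a1, whose product returns calcium to the reticulum, had 8008, 9382 and 9941 CPM in mutants, against 14288, 12312 and 17182 CPM in siblings (-0.68 ± 0.13, adjusted p = 0.00239). Its relative atp2a1l had 109, 155 and 148 CPM in mutants, against 352, 341 and 499 CPM in siblings (-1.53 ± 0.28, adjusted p = 0.00250), so that the mutant mean was 34.6% of the sibling mean. Neither gene overlapped between the groups. At 24 hpf atp2a1l had 22, 16, 80 and 28 counts in mutants and 16, 32, 62 and 38 counts in siblings, with overlap.

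Calsequestrin buffers calcium inside the reticulum. The fast form casq1a had 97.1, 115 and 113 CPM in mutants, against 198, 185 and 325 CPM in siblings (-1.12 ± 0.28, adjusted p = 0.0224), without overlap. Sibling replicate 3 was the highest, and without it the adjusted p was 0.0969. Without mutant replicate 1, 2 or 3 it was 0.104, 0.0639 and 0.0765. The other forms were not called: casq1b gave -0.33 ± 0.22, adjusted p = 0.473 and the heart form casq2 -0.58 ± 0.22, adjusted p = 0.148, again with the highest value in sibling replicate 3.

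The ryanodine receptor releases calcium to the filaments. Of its 2 genes, ryr1b, the form of zebrafish fast muscle, had 311, 381 and 421 CPM in mutants, against 486, 463 and 667 CPM in siblings (-0.54 ± 0.14, adjusted p = 0.0287), without overlap. The call was lost without mutant replicate 1 or 2 (adjusted p 0.159 and 0.0773), without sibling replicate 3 (0.115) and in a fit of the 48 hpf libraries alone (0.144). The slow muscle form ryr1a had 69.3, 55.6 and 78.6 CPM in mutants and 70.0, 54.7 and 89.0 CPM in siblings (-0.07 ± 0.16, adjusted p = 0.871), with overlap.

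**Figure D3:**
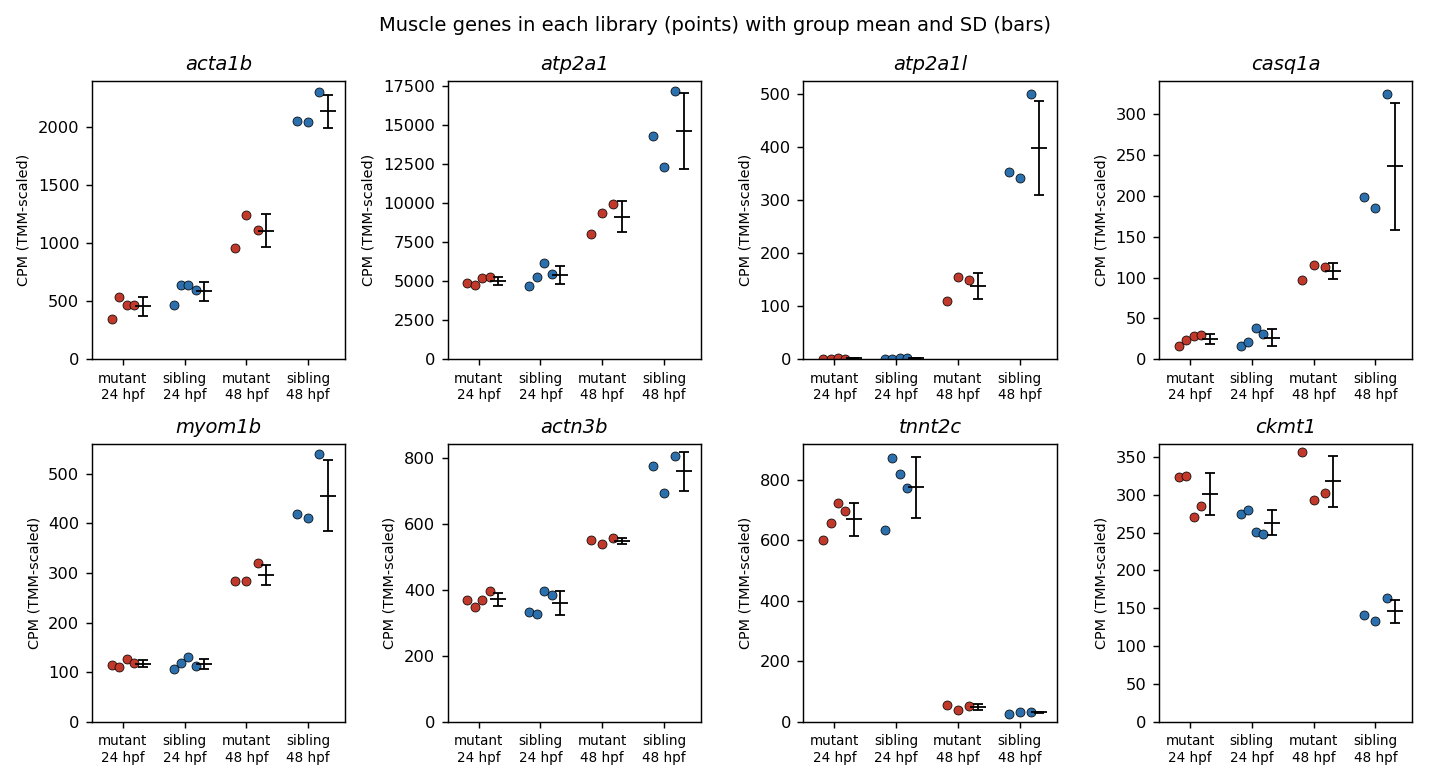
CPM per library (vertical axis; points are libraries, bars the mean ± SD) of acta1b, atp2a1, atp2a1l, casq1a, myom1b, actn3b, tnnt2c and ckmt1 in the 4 groups. At 48 hpf all mutant points lie below all sibling points for the first 6 genes and above them for tnnt2c and ckmt1.

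Among the 5 creatine kinase genes 1 rose and none fell (20% called, where 6.06% of all genes were called). With the replicate block 2 fell. Mitochondrial creatine kinase ckmt1, whose mammalian counterpart is made in many tissues and not in muscle alone, had 356, 294 and 303 CPM in mutants, against 141, 133 and 163 CPM in siblings (1.12 ± 0.11, adjusted p = 5.28e-06). Each mutant library was above each sibling library, and the mutant mean was 218% of the sibling mean. At 24 hpf ckmt1 had 323, 326, 270.4 and 286 CPM in mutants and 274, 280.4, 251 and 248 CPM in siblings (0.19 ± 0.09, adjusted p = 0.320), and the effects of the stages differed (0.93 ± 0.14, adjusted p = 0.00127). In siblings the gene fell with stage (-0.85 ± 0.10, adjusted p = 2.32e-06), whereas mean CPM at 48 hpf was 1.05 times that at 24 hpf in mutants.

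The cytosolic creatine kinases of muscle lay lower without passing the test. The gene ckma had 3529, 3712 and 3552 CPM in mutants and 4714, 4113 and 5048 CPM in siblings (-0.36 ± 0.12, adjusted p = 0.0863, or 0.0264 with the replicate block), and ckmb gave -0.21 ± 0.10, adjusted p = 0.250. The libraries overlapped for neither gene. The sarcomeric mitochondrial forms gave -2.39 ± 0.72, adjusted p = 0.0617 for ckmt2a, which averaged 1.04 ± 0.106 CPM in mutants and 5.50 ± 2.05 CPM in siblings, and -0.19 ± 0.18 for ckmt2b. With the replicate block ckmt2a was called lower (adjusted p = 0.0106).

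By fibre type, 5 of 23 fast genes fell at 48 hpf and none rose (21.7% lower, where 1.80% of all genes were lower). Their median log2 fold change was -0.35, and 22 of 23 values were below 0. Leaving out any mutant library or sibling replicate 3 of 48 hpf left 3 calls. Types were set by symbol, and ryr1b, ryr1a and tpm3, described above as fast or slow forms, were not counted in any of them. None of the 6 slow genes was called (median -0.07, 3 above and 3 below 0), and none of the 6 heart genes (median -0.07, 3 above and 3 below 0). Summed over the genes of a type, the fast genes stood at 42587 to 48531 CPM in mutants and 55034 to 73795 CPM in siblings. The slow genes stood at 1353 to 1656 CPM in mutants and 1260.3 to 1887 CPM in siblings, with overlap. Whether the fibre types differ in their response was not tested, and at 24 hpf the fast sums overlapped (13403 to 16511 CPM in mutants, 13251 to 19147 CPM in siblings).

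The change of the mutant effect between the stages was tested directly. Of the 74 genes 4 were called, or 5.41%, where 3.17% of all genes were called (2.43% higher, 0.737% lower). The effect was more positive at 48 hpf for ckmt1 and tnnt2c and more negative for myom1b and actn3b. The next smallest p-values were those of myoz2a (-1.09 ± 0.30, adjusted p = 0.0565) and acta1a (-0.46 ± 0.13, adjusted p = 0.0612). With the replicate block 14 genes were called, 2 higher and 12 lower, and the added ones included acta1b (adjusted p = 0.0100), atp2a1 (0.0154), atp2a1l (0.00950), casq1a (0.00873) and ryr1b (0.00987). Over all genes the block gave 1183 calls, against 774 without it. Leaving out sibling replicate 3 of 48 hpf gave 7 calls, and 2 were left without mutant replicate 1 or 2 of 48 hpf or without sibling replicate 1 of 24 hpf.

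**Figure D4:**
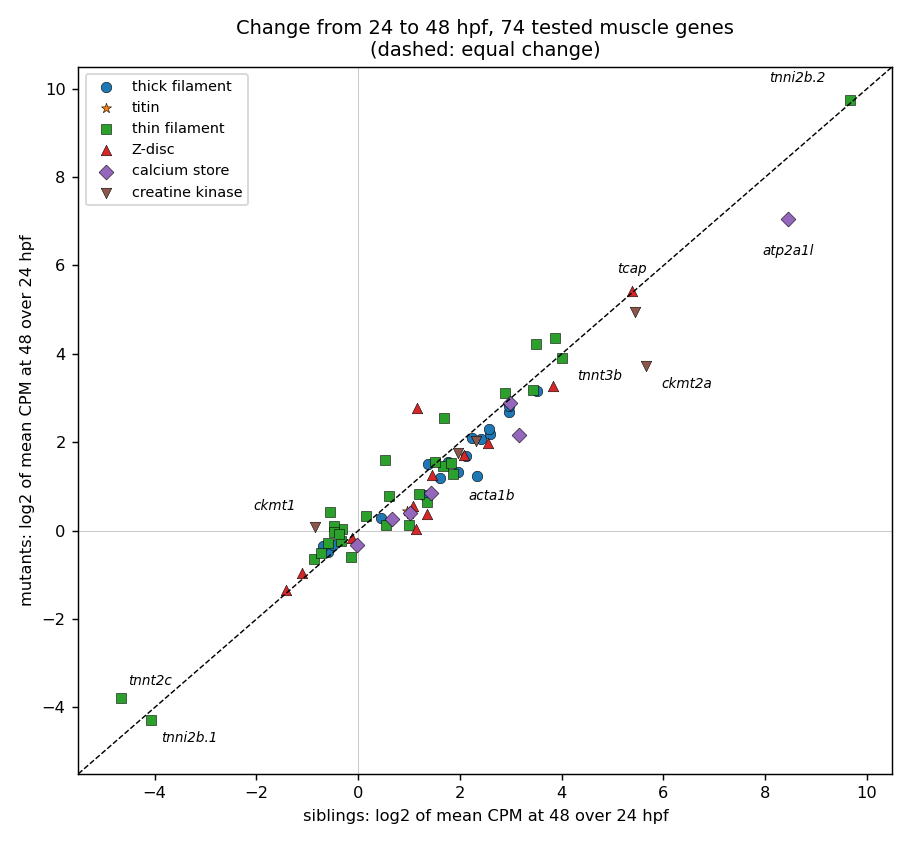
Log2 ratio of mean CPM at 48 hpf to that at 24 hpf in mutants (vertical axis) against siblings (horizontal axis) for the 74 tested genes; the dashed line marks an equal change. Most genes lie above 0 on both axes, and tnnt2c and ckmt1 lie above the line, while atp2a1l, acta1b and casq1a lie below it.

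Genes that work beside the sarcomere were followed in separate lists. Of 36 tested genes for sarcomere assembly and chaperones, 6 rose and 1 fell in the 48 hpf mutants (median 0.16). That is 19.4% called (16.7% higher, 2.78% lower), where 6.06% of all genes were called (4.26% higher, 1.80% lower). The myosin chaperone gene hsp90aa1.1 had 181, 265 and 298 CPM in mutants, against 96.6, 83.8 and 85.3 CPM in siblings (1.49 ± 0.15, adjusted p = 7.79e-06). Its partner in myosin folding, unc45b, had 90.5, 91.3 and 120.5 CPM in mutants, against 63.2, 60.4 and 47.4 CPM in siblings (0.82 ± 0.12, adjusted p = 4.26e-04). All mutant libraries were above all sibling libraries for both.

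Also higher were trim63a, a ubiquitin ligase of muscle (0.95 ± 0.12, adjusted p = 6.84e-05), the intermediate filament gene desma (0.78 ± 0.10, adjusted p = 6.07e-05), the small heat shock protein gene hspb1 (0.70 ± 0.15, adjusted p = 0.00775) and the co-chaperone gene bag3 (0.80 ± 0.19, adjusted p = 0.0148). The obscurin-like gene obsl1b fell (-0.50 ± 0.11, adjusted p = 0.0120). Obscurin, obscna, which ties the sarcomere to the reticulum, rose in mutants at 24 hpf, with 24.6, 15.4, 25.2 and 21.4 CPM in mutants and 11.9, 7.77, 12.2 and 11.4 CPM in siblings (1.00 ± 0.20, adjusted p = 0.00745). At 48 hpf obscna had 22.8, 14.5 and 17.1 CPM in mutants and 37.9, 22.5 and 31.8 CPM in siblings (-0.76 ± 0.23, adjusted p = 0.0578), and the stages differed (-1.77 ± 0.30, adjusted p = 0.00318). Among other alternatives, obscna was called at 48 hpf with the replicate block (adjusted p = 0.000835), DESeq2 (0.0141) and limma-voom (0.0366). Calls of bag3 and obsl1b at 48 hpf were lost without mutant replicate 3 (adjusted p 0.0513 and 0.0520), that of bag3 also without sibling replicate 2 (0.0513) and that of obsl1b without mutant replicate 1 (0.0737). In a fit of the 48 hpf libraries alone the calls of hspb1 and bag3 were lost (adjusted p 0.0923 and 0.111).

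Several of these genes fell with stage in the siblings and were higher in the 48 hpf mutants: hsp90aa1.1, unc45b, trim63a, desma, hspb1 and bag3 fell by 3.32, 2.34, 1.55, 0.89, 3.26 and 0.81 on the log2 scale between 24 and 48 hpf. The same held for tnnt2c and ckmt1 of the muscle set. Other genes did not follow this pattern, and 20 of the 36 genes of the list fell with stage. The gene obsl1b and the transcription factor genes prdm1a, sox6 and mef2ca fell with stage in siblings and were lower in the 48 hpf mutants. The gene tcap rose with stage and stood higher in the 48 hpf mutants without being called. Both comparisons use the siblings of 48 hpf.

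**Figure D5:**
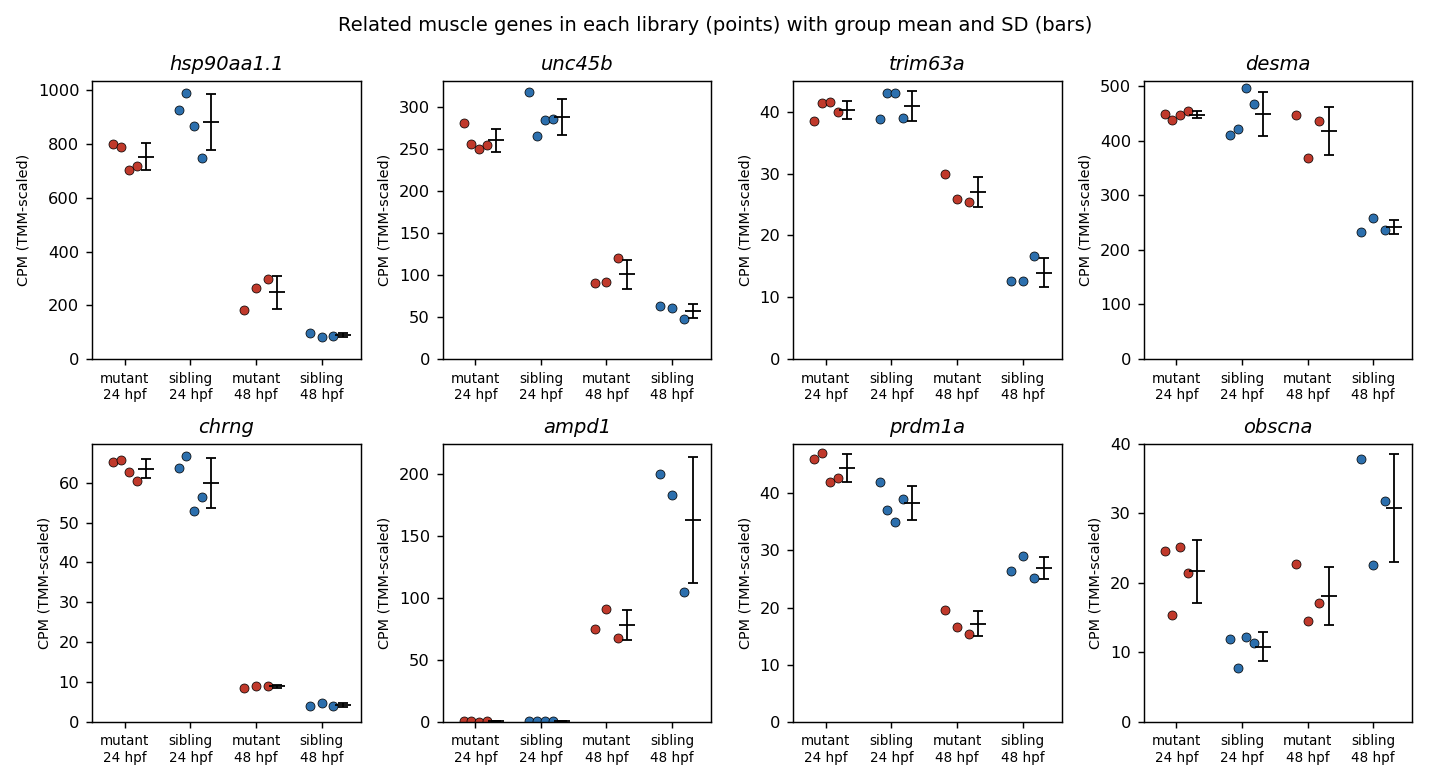
CPM per library (vertical axis; points are libraries, bars the mean ± SD) of hsp90aa1.1, unc45b, trim63a, desma, chrng, ampd1, prdm1a and obscna in the 4 groups. At 48 hpf the mutant points of the first 5 genes lie above all sibling points.

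The median of the list of excitation-contraction coupling and the neuromuscular membrane was -0.14 at 48 hpf. Of its 36 genes 1 was called (2.78%, where 6.06% of all genes were called). It was chrng, the acetylcholine receptor subunit of embryonic muscle in mammals, with 8.52, 9.08 and 9.07 CPM in mutants, against 3.84, 4.81 and 3.88 CPM in siblings (1.09 ± 0.12, adjusted p = 1.92e-05). DESeq2 called 6 of these genes (1 higher, 5 lower), as did the fit with the replicate block (2 higher, 4 lower). Of 12 genes for fusion and glycogen supply, 2 fell, the muscle AMP deaminase gene ampd1 (-1.06 ± 0.24, adjusted p = 0.0116) and the muscle phosphofructokinase gene pfkma (-0.77 ± 0.22, adjusted p = 0.0491). These are 16.7% of that list, where 6.06% of all genes were called (1.80% lower). The call of ampd1 was lost with DESeq2 (adjusted p = 0.0812). It was also lost without mutant replicate 1 or 3 or sibling replicate 1 or 2 of 48 hpf. The call of pfkma was lost without any one library of 48 hpf (adjusted p up to 0.178) and with library size only (0.0689). The pfkma call was also lost without mutant replicate 1 or 3 or sibling replicate 1 or 4 of 24 hpf (0.0528 to 0.0639).

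Of 26 transcription factor genes of the muscle lineage, 3 fell and none rose at 48 hpf (median -0.01). That is 11.5%, where 6.06% of all genes were called (1.80% lower). The gene prdm1a, which sets slow fibre fate in zebrafish, had 19.6, 16.5 and 15.4 CPM in mutants, against 26.3, 29.0 and 25.2 CPM in siblings (-0.64 ± 0.11, adjusted p = 0.00153), without overlap, and the stages differed (-0.86 ± 0.15, adjusted p = 0.00325). The others were sox6, a repressor of slow muscle genes in fast fibres (-0.43 ± 0.11, adjusted p = 0.0234), and mef2ca (-0.30 ± 0.08, adjusted p = 0.0322), with adjusted p up to 0.133 and 0.188 over the alternatives. The call of mef2ca was lost without mutant replicate 2 or 3 or any sibling library of 48 hpf, and that of sox6 without mutant replicate 1 or 3 or sibling replicate 1 or 2. The myogenic factor genes myod1 and myog gave 0.25 ± 0.21 and 0.27 ± 0.21.

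Of 10 heart muscle markers, 1 was called at 48 hpf, gata4, a factor of heart and endoderm (1.27 ± 0.28, adjusted p = 0.00905, 0.0668 without mutant replicate 1). The heart myosin light chain gene myl7 had 17.4, 15.9 and 15.7 CPM in mutants and 16.6, 17.4 and 13.1 CPM in siblings (0.06 ± 0.17). None of 5 smooth muscle and 6 epidermis markers was called. Over all genes 6.06% were called. Of 7 neuron markers, stmn2a (-0.43 ± 0.10, adjusted p = 0.0120) and stmn2b (-0.45 ± 0.10, adjusted p = 0.00915) fell. Of the 5 genes listed as notochord markers, col9a1a fell (-0.60 ± 0.17, adjusted p = 0.0431). Another gene of that list, ctslb, rose (12.3, 14.3 and 13.3 CPM in mutants, 4.82, 6.30 and 7.41 CPM in siblings, adjusted p = 2.96e-05). In zebrafish ctslb is known as a hatching gland gene, so its rise is not read as a notochord change. The call of stmn2a was lost without mutant replicate 2 or 3 (adjusted p 0.0542 and 0.0758), that of stmn2b without mutant replicate 3 (0.0684), and that of col9a1a without any one library of 48 hpf (up to 0.170). At 24 hpf these lists held, besides obscna, 1 call, the epidermal keratin gene cyt1 (-0.41 ± 0.11, adjusted p = 0.0499, up to 0.165 over the alternatives). These calls were 2.78% of the assembly and chaperone list and 16.7% of the epidermis list, where 3.82% of all genes were called. The gene dysf of the excitation-contraction list was not called at 24 hpf (adjusted p = 0.0779). Among other alternatives, it was called with DESeq2 (0.027), the replicate block (0.0164) and the 24 hpf libraries alone (0.0405).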

How the data were processed

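RNA-seq of whole zebrafish embryos gave 14 libraries in 4 groups of stage and genotype. Per the labels, 1 µg of TRIzol-extracted total RNA went into libraries made with a NEBNext Ultra RNA kit, which does not mark the strand. Per gene, the authors deposited read counts with no normalization. The submitters' processing notes name STAR 2.7.10b, featureCounts 2.0.6, the build GRCz11 and, for read quality, Trim Galore 0.6.10 with FastQC 0.12.1. Which annotation and strand setting were used, and how reads matching several places were counted, is not given in the sources used here; hence reads of close paralogs or overlapping genes can have been counted for either gene.

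The table was analysed with edgeR 4.0.16 (limma 3.58.1, R 4.3.3): TMM factors, filterByExpr with a minimum count of 10, and 1 quasi-likelihood fit of the 14 libraries in their 4 groups (common dispersion 0.0580, 10 residual degrees of freedom). The filter kept 24424 genes; 4130 of the 36109 genes had no count. The contrasts were mutants against siblings at each stage, the difference of these effects between the stages, and the siblings of 48 against those of 24 hpf, with Benjamini-Hochberg adjustment over all 24424 genes; the SE of a log2 fold change is its size divided by the square root of F. Shares within families were tested by exact two-sided permutation, adjusted over 27 shares. The procedure was tested on simulated data.

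The members, the 9 lists of related genes, the tests and the naming rule were chosen with earlier results of these data known. Named by rule were mttp, a set of members listed by symbol, up to 12 called members each way per mutant contrast with the smallest p (at least 6 where fewer were called), up to 6 each way for the difference, the member with most counts per role, and the 6 greatest rises and falls with stage among called members of an average log2 CPM of at least 1. Called genes of the lists, and actn2a, ckmt2a, mybpc2a, myl7, myod1, myog, myoz1b, myoz3a, tnni2a.2, tnni2a.3, tnnt2d, tnnt2e, tpm4a and tpm4b, were named after their values were seen. Genes were ordered by role and fibre type from their symbols.

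Replicate numbers come from the sample titles. Deviations from the group means correlated between mutant and sibling libraries of the same number over 24424 genes (0.415, 0.302, 0.337 and 0.123 at 24 hpf, 0.289, 0.253 and 0.110 at 48 hpf), each over 0.1, so the numbers were taken to pair the samples within a stage. The batch label equals the stage. The alternatives were limma-voom, DESeq2 1.42.0, scaling by library size only or by RLE, testing without the low-count filter or with a filter at 1 CPM in 3 libraries, summed families, leaving out each library, leaving out both libraries of low mitochondrial share, 1 stage or the siblings only, and the replicate block.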

Additional observations from a re-analysis of the deposited data

Results flagged for a closer look

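Of 154 groups of 4 libraries checked, 5 held a library far from the others, and chance gives about 1 in 20. The tcap value of sibling replicate 1 at 24 hpf was 1.21 CPM, beside 0.236 to 0.372 in the others. At 24 hpf mutant replicate 3 had 1095 CPM of myhz2 (others 618 to 683) and 44.9 CPM of actn2b (others 38.2 to 39.1). Mutant replicate 1 had 14.2 CPM of smyhc3 (others 23.3 to 24.6), and sibling replicate 1 had 341 CPM of tnni2b.1 (others 465 to 488).

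The mutant effects at 48 and 24 hpf differed by edgeR's quasi-likelihood test of the difference for 16 genes, given as log2 differences (48 minus 24 hpf). Within the muscle set they were 0.93 for ckmt1, 0.88 for tnnt2c, -0.63 for myom1b and -0.51 for actn3b. Among the related genes the differences were 1.71 for hsp90aa1.1, 1.02 for ctslb, 1.01 for chrng, 0.97 for unc45b, 0.97 for trim63a, 0.93 for xirp1, 0.89 for hspb1, 0.79 for desma, 0.65 for dysf, -0.71 for obsl1b, -0.86 for prdm1a and -1.77 for obscna. The adjusted p-values of these 16 genes lay between 8.15e-05 (hsp90aa1.1) and 0.0352 (actn3b). Besides the losses given for myom1b and actn3b, the difference of dysf was lost without any one mutant library or sibling replicate 1 or 3 of 24 hpf, without mutant replicate 2 or 3 or sibling replicate 1 or 2 of 48 hpf, and with library size only (adjusted p 0.0515 to 0.0930). That of xirp1 was lost without mutant replicate 1, 3 or 4 or sibling replicate 2 of 24 hpf, or mutant replicate 3 or sibling replicate 2 of 48 hpf (0.0522 to 0.0734). That of hspb1 was lost without mutant replicate 3 or 4 of 24 hpf, without mutant replicate 1 of 48 hpf and with library size only (0.0508 to 0.0602), and that of obsl1b without mutant replicate 1 of 48 hpf (0.0529).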

How the results depend on the processing

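No fold change of a named gene that was called turned its direction under any alternative, and of the 13 calls at 48 hpf 7 held under every one. At 24 hpf, members called numbered 0 to 1 over the 14 fits that left out 1 library and 2 with the replicate block. At 48 hpf, where 13 were called, the counts were 22 with DESeq2, 20 with limma-voom, 23 with the replicate block, and 8 to 17 when 1 library was left out. For the difference of effects, where 4 were called, they were 13 with DESeq2, 7 with library size only, 7 with the CPM filter, 8 without both libraries of low mitochondrial share, 14 with the replicate block, and 2 to 7 when 1 library was left out. For the change with stage, where 61 were called, they ranged from 54 with summed families to 63. A summed family counts as 1 gene, so the 54 are out of fewer genes, and each family sum was called (adjusted p of at most 0.00141). The calls numbered 62 with the replicate block across stages, a pairing that was not checked, and 59 to 63 when 1 library was left out. The replicate block lost none of the 13 calls at 48 hpf. Scaling by library size only moved the median of all genes at 24 hpf by 0.102 on the log2 scale. The cause of these shifts was not tested. Genes with few counts, such as ckmt2a and tnni2b.2 at 24 hpf, allow no firm statement at that stage, and close copies within the myosin and troponin I groups limit statements on single genes.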
